A study of Mus musculus with 2 samples.

Results

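The 40 genes described here encode proteins that bind pre-mRNA and steer its splicing, in single-cell libraries of mouse bone marrow stem cells. They were chosen by name alone, as every feature whose symbol starts with Srsf, Hnrnp or Sf3, from 28206 features in the count tables, with symbols holding -ps left out. They comprise 20 hnRNP genes, 11 SR genes (Srsf1 to Srsf7 and Srsf9 to Srsf12) and 9 SF3 genes (Sf3a1 to Sf3a3 and Sf3b1 to Sf3b6). As background, SR proteins carry an RNA recognition motif and a tail rich in arginine and serine, bind exonic enhancers and recruit the spliceosome, and their kinases set their activity. The hnRNP proteins coat nascent transcripts and often block splice sites or tie RNA stability and export to splicing. The SF3A and SF3B proteins are core parts of the U2 small nuclear ribonucleoprotein, which holds the branch point of the intron. Splicing factor genes, among them Srsf2 and Sf3b1, are recurrently mutated in myelodysplastic syndromes, which arise in hematopoietic stem cells.

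The study sorted live GFP+ cells from lineage-depleted bone marrow of Mds1-GFP/+ Flt3-Cre mice, by GFP alone, and mixed them with stem cells of wild-type mice (LT-HSCs, long-term hematopoietic stem cells), sorted as Lin-, cKit+, Sca+, CD48- and CD150+. GFP marks activity at the Mds1 start of the Mecom locus, and its cassette is flanked by loxP sites, so that a cell in which Cre had acted would lose it. The sources used here give neither ages nor the number of animals. Both libraries are aliquots of 1 pool (aliquot 1 and aliquot 2), made with inDrops, a droplet method that tags each captured transcript with a cell barcode and a unique molecular identifier (UMI). The replicate is thus the pool, n = 1, so cell sets are described without a test or p-value. Where both aliquots are quoted, their spread is technical.

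Barcodes were kept as cells from 500 UMIs upward if no more than 20% of these were mitochondrial, which left 1574 of 2147 barcodes in aliquot 1 and 1828 of 8662 in aliquot 2, with medians of 946.5 and 2071.5 UMIs per cell. The aliquots shared 461 barcode sequences, 55 of them kept in both, and the labels do not say whether these are the same droplets. All 15 LT-HSC markers had at least 10 UMIs, with a summed level of 4299 CPM (UMIs per 1e+06 UMIs of the aliquot) in aliquot 1 and 3747 in aliquot 2. The 14 granulocyte and monocyte markers also had at least 10 UMIs each, at 3432 and 2588 CPM, although Gr1+ cells had been depleted. The 6 megakaryocyte markers summed to 319 and 367 CPM, all 6 with at least 10 UMIs, and of 10 erythroid markers 7 had at least 10 UMIs and Hba-a1 was at 0.

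All levels are in CPM. Because inDrops counts molecules from 1 transcript end, they were not divided by length, and the capture of each gene was taken as alike when levels of genes are set side by side. Together the 40 genes held 86231 UMIs, 1.52% of all UMIs in kept cells. Their summed level was 16735 CPM in aliquot 1 (95% Poisson interval 16537 to 16934) and 14594 CPM in aliquot 2 (14476 to 14712). The hnRNP genes held most of it, 11530 CPM in aliquot 1 and 10153 CPM in aliquot 2, against 3403 and 2880 CPM for the SR genes and 1801 and 1562 CPM for the SF3 genes. Of the 40 genes, 20 were among the 500 features with most UMIs and 28 among the first 1000.

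Hnrnpa2b1, which binds nascent and methylated RNA, led the hnRNP genes with 1438 CPM in aliquot 1 and 1356 CPM in aliquot 2. Hnrnpf, which binds runs of G, followed with 1363 and 1043 CPM, and Hnrnpa1, a repressor of exon inclusion, with 1256 and 1026 CPM. Hnrnpa1 has many processed pseudogene copies, and its level is uncertain because the sources used here do not say how reads shared by such copies were counted. These 3 genes gave 34.2% of hnRNP UMIs. Below them lay Hnrnpu, a nuclear scaffold protein, at 924 and 777 CPM, Hnrnpk, which binds runs of C, at 853 and 805 CPM, and Hnrnpc, which binds runs of U, at 784 and 696 CPM. The lowest hnRNP gene was Hnrnpll, a regulator of lymphocyte exon choice, at 70.1 and 53.4 CPM.

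Srsf2, also known as SC35, was the leading SR gene with 803 CPM in aliquot 1 and 677 CPM in aliquot 2, and gave 23.5% of SR UMIs. Srsf5 at 485 and 441 CPM and Srsf1, the founding member of the family, at 496 and 416 CPM came next and overlapped in order between the aliquots. Srsf12 held only 9 UMIs in all kept cells and was the one member left out of most comparisons below. Among SF3 genes, Sf3b6, which lies next to the branch point adenosine, was highest at 435 and 397 CPM. Sf3b1, the largest SF3B subunit, stood at 360.2 and 259 CPM, and Sf3b5 was lowest at 57.9 and 59.6 CPM.

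**Figure D1:**
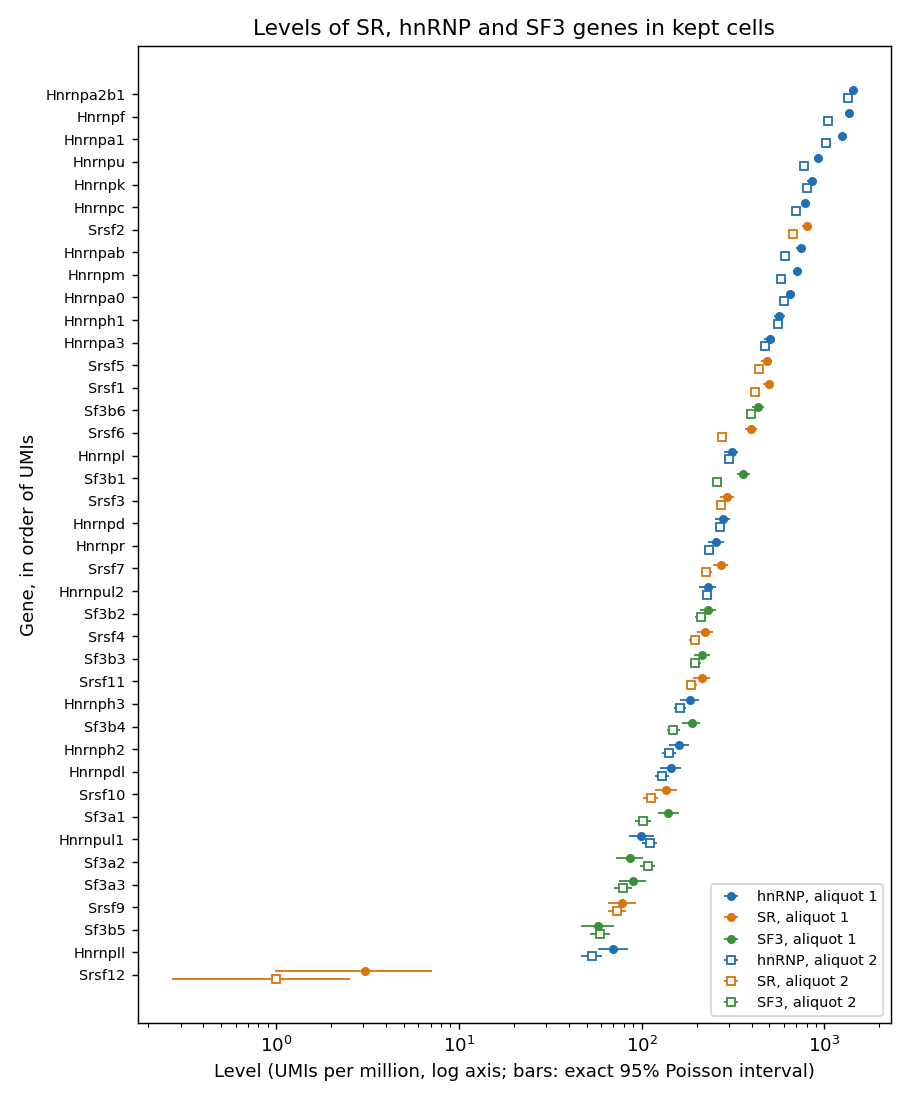
Level of each of the 40 genes (CPM, log axis) in aliquot 1 (filled circles) and aliquot 2 (open squares), with exact 95% Poisson intervals and colours for the hnRNP, SR and SF3 families. The order of genes was much the same in both aliquots, most levels were lower in aliquot 2, and Srsf12 lay far below the rest.

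The aliquots differed in level but hardly in order. Over the 39 genes that had 50 UMIs or more in both aliquots, the median log2 ratio of aliquot 2 over aliquot 1 was -0.17, beside -0.13 over all 5993 such features. Sf3a2 was over 25% higher in aliquot 2, at 85.9 CPM in aliquot 1 and 108 CPM in aliquot 2, and 7.29% of all features were past that limit. Lower than 0.8 were 6 genes (Hnrnpf, Hnrnpll, Sf3a1, Sf3b1, Sf3b4 and Srsf6), beside 19.7% of all features. Srsf6 differed most among the well-covered ones, with 399 CPM in aliquot 1 and 277 CPM in aliquot 2, a ratio of 0.69 (0.63 to 0.76). For this reason the summed level of these genes is also given within each aliquot for every split below. Many family and single gene ratios are pooled values only, and the aliquots need not agree where none is quoted.

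Barcodes under 200 UMIs, which hold free RNA and debris, carried the same genes at lower levels. In aliquot 2 the summed level was 12302 CPM (12004 to 12605) over 6291 such barcodes, against 14594 CPM in kept cells. How many of a cell's UMIs of these genes came from free RNA was not tested.

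To compare cells of unequal depth, each kept cell was thinned at random to 500 UMIs. A cell then held on average 7.41 UMIs of the 40 genes (SD 3.47, over 3402 cells), with a range of 0 to 28, and 21 cells held none. The variance of this sum was 1.58 times its mean within aliquot 1 and 1.59 times within aliquot 2, where pure counting noise would give a ratio near 1.

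Cells were next split by 47 S phase genes, mostly of DNA replication. The upper set had at least 3 UMIs of them among 500 (1021 cells) and the lower set had 0 (1088 cells), while 1293 cells with 1 or 2 lay between and were left out. The 40 genes together were 1.38 times as high in the upper set (95% interval 1.34 to 1.42, for counting error only), at 17843 against 12941 CPM. In aliquot 1 the levels were 19150.4 against 13935 CPM, a ratio of 1.37 (1.31 to 1.44). In aliquot 2 they were 16628 against 12205 CPM, a ratio of 1.36 (1.30 to 1.42). By family the ratio was 1.41 (1.31 to 1.51) for SR genes, 1.39 (1.34 to 1.44) for hnRNP genes and 1.27 (1.16 to 1.40) for SF3 genes, and these intervals overlap.

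A gene was counted as measured if at least 10 UMIs were expected in the smaller cell set, and as higher or lower if its pooled level was at least 25% higher or 20% lower with 1 direction in both aliquots. Of 39 measured genes, 21 were higher in S phase cells, beside 23% of all 7542 measured features, and 2 were lower, beside 25.7% of all features. The median log2 ratio was 0.40 for the 39 genes and -0.03 for all measured features. Low counts can carry features past these limits, so the counts were repeated with at least 100 expected UMIs, a limit chosen after the values were seen. Then 16 of 26 genes were higher, beside 27.5% of 764 features, and Srsf5 alone was lower, beside 17.9% of them.

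The cells of the upper and lower set differed in more than S phase genes. The upper set had a median of 1658 UMIs before thinning and the lower set 1248.5 (1231 against 838 in aliquot 1, 2667 against 1891 in aliquot 2). The LT-HSC markers summed to 2921 CPM in the upper and 4612 CPM in the lower set, 13 of their 15 measured genes being lower in the upper set. Immediate early genes other than Fos and Egr1 summed to 1829.9 CPM against 3577 CPM. Granulocyte and monocyte markers stood at 2704 against 3089 CPM. The aliquots gave them no common direction, at 4159 against 3057 CPM in aliquot 1 and 2058 against 3100 CPM in aliquot 2. Megakaryocyte markers stood at 489 against 202 CPM, at 445 against 188 CPM in aliquot 1 and 509 against 207 CPM in aliquot 2. Without cells holding 3 or more granulocyte and monocyte marker UMIs the summed ratio was 1.38, and in cells of at least 1000 UMIs it was 1.42. Neither choice matches the sets in depth or in markers. The part of depth and of these cell states in the splicing gene ratio was not tested.

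Among hnRNP genes, the highest ratios belonged to a pair of closely related RNA-binding proteins and to Hnrnpf. Hnrnpd, known as AUF1 and a binder of AU-rich elements in mRNA, stood at 362 against 190.1 CPM in aliquot 1 and 378 against 173 CPM in aliquot 2, a pooled ratio of 2.06 (1.60 to 2.65). Hnrnpab stood at 911 against 475 CPM in aliquot 1 and 836 against 406 CPM in aliquot 2, a pooled ratio of 2.00 (1.71 to 2.35). Hnrnpf stood at 1728 against 873 CPM in aliquot 1 and 1376 against 729.6 CPM in aliquot 2, a pooled ratio of 1.96 (1.74 to 2.20). For each of the 3 genes both upper values lay above both lower values, so the aliquots do not overlap. Hnrnpa3, a relative of Hnrnpa1 that also has pseudogene copies, stood at 675 against 363 CPM and 631 against 352 CPM, with a ratio of 1.83 (1.53 to 2.19). Hnrnpu at 1.58 (1.37 to 1.82), Hnrnpa2b1 at 1.49 (1.33 to 1.65), Hnrnpr at 1.35 (1.05 to 1.75), Hnrnpk at 1.29 (1.12 to 1.48) and Hnrnpm at 1.254 (1.08 to 1.46) were the other hnRNP genes called higher.

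Of the SR genes, 7 of 10 measured were higher. Srsf2 stood at 1085 against 553 CPM in aliquot 1 and 805 against 470.4 CPM in aliquot 2, a pooled ratio of 1.86 (1.60 to 2.17). Srsf7, a splicing and export factor, stood at 402 against 164 CPM in aliquot 1 and 261 against 182 CPM in aliquot 2, a pooled ratio of 1.88 (1.46 to 2.45), so its size differed between aliquots while its direction did not. Srsf1 at 1.70 (1.40 to 2.07), Srsf3, the smallest SR protein, at 1.71 (1.32 to 2.21), and Srsf6 at 1.32 (1.07 to 1.64) were higher as well. Srsf9 at 1.86 (1.17 to 2.99) and Srsf10 at 1.46 (0.99 to 2.15) rest on few UMIs, 54 and 67 in the upper set.

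Srsf5 went the other way. It stood at 358 against 605 CPM in aliquot 1 and 382 against 461 CPM in aliquot 2, so that both upper values lay below both lower ones, and its pooled ratio was 0.71 (0.59 to 0.86). Hnrnph3, a member of the G-run binding group that includes Hnrnpf, also lay lower, at 150.4 against 225 CPM in aliquot 1 and 136 against 218 CPM in aliquot 2, a pooled ratio of 0.65 (0.48 to 0.87). With cells thinned to 1000 UMIs in place of 500 the ratios of Srsf5 and Hnrnph3 were 0.86 (0.72 to 1.04) and 0.95 (0.70 to 1.31), past the 0.8 limit no longer, whereas with all counts of the same cells they were 0.81 (0.74 to 0.90) and 0.64 (0.55 to 0.75). Hnrnph2, an X-linked gene of the same group, had a ratio of 0.81 (0.58 to 1.12). Hnrnph1, the most abundant of that group after Hnrnpf, had a ratio of 1.21 (1.03 to 1.43).

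SF3 genes ranged from Sf3b4, which sits near the branch point, at 1.78 (1.28 to 2.49) to Sf3b1 at 0.89 (0.71 to 1.12). Sf3b3 at 1.44 (1.10 to 1.91) and Sf3b6 at 1.42 (1.17 to 1.72) were higher, as were Sf3a2 at 1.50 (0.98 to 2.33) and Sf3b5 at 1.48 (0.91 to 2.43), whose intervals include 1. Sf3b1 had 329 against 423 CPM in aliquot 1 and 231 against 230.4 CPM in aliquot 2, which gives no common direction.

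**Figure D2:**
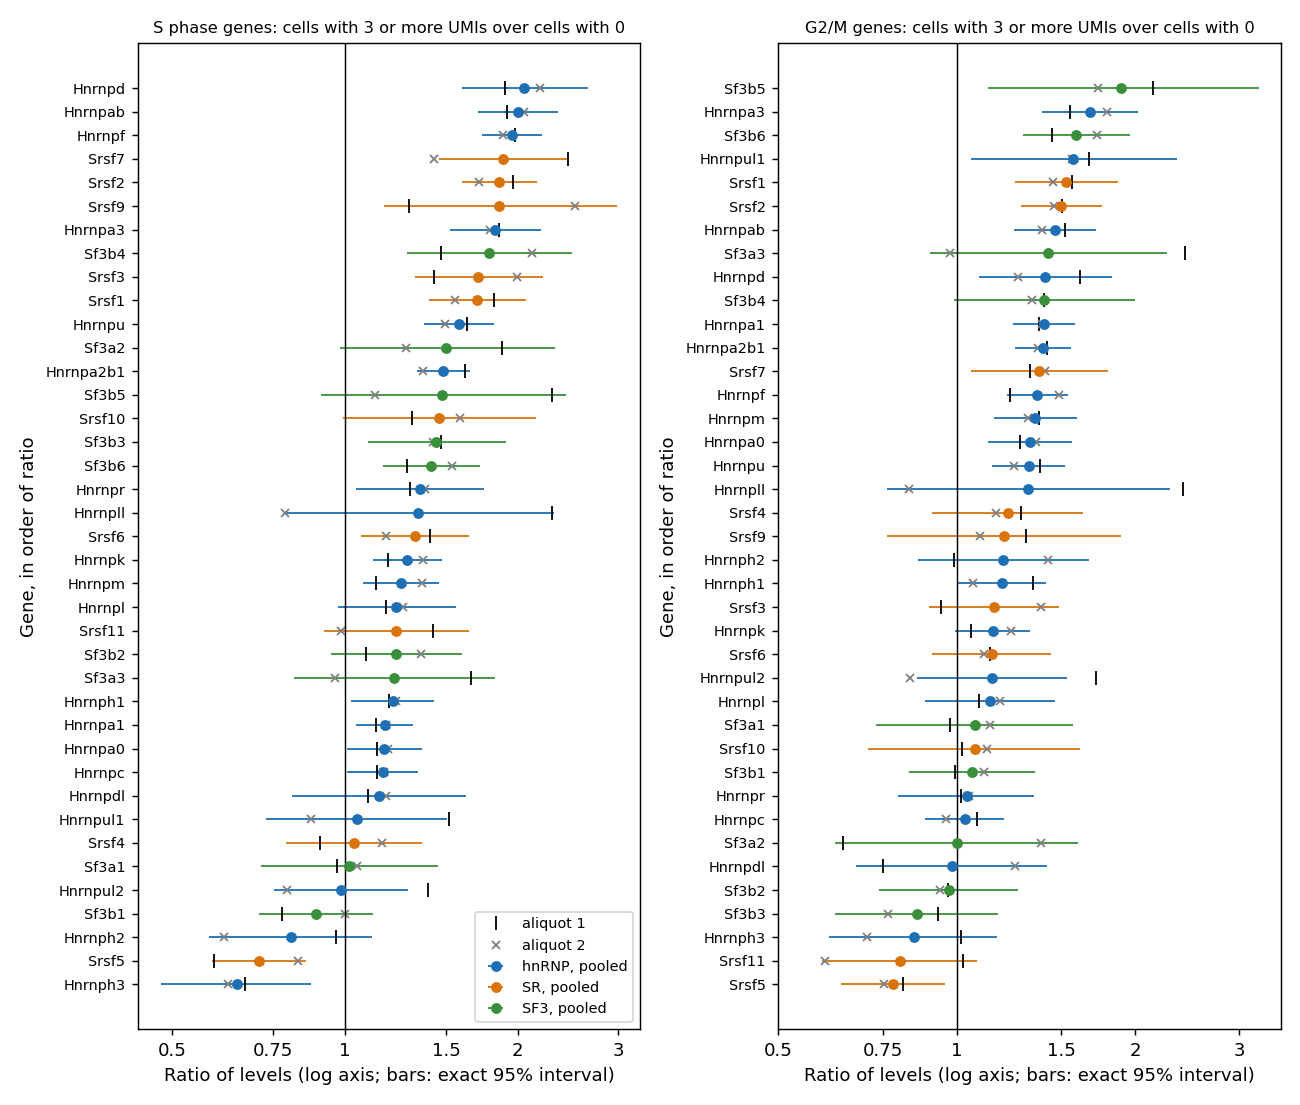
Ratio of each gene's level between cells with 3 or more and cells with 0 UMIs of the S phase genes (left) or G2/M genes (right), on a log axis; coloured points are pooled ratios with exact 95% intervals, and black bars and grey crosses are aliquots 1 and 2. On the left Hnrnpd, Hnrnpab and Hnrnpf lie near 2, and Srsf5 and Hnrnph3 lie below 1 in both aliquots.

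Promoter sequences are shown for a pair of genes that were higher in S phase cells and for the pair that were lower. The higher pair was picked from 21 such genes and need not stand for the others. They come from RefSeq on GRCm38.p6 and run 5′ to 3′ on the gene's strand from 250 bases before to 50 bases after the start. Srsf2 lies at chr11:116853045-116853344 and Hnrnpab at chr11:51606832-51607131, both on the minus strand, Srsf5 at chr12:80945249-80945548 on the plus strand and Hnrnph3 at chr10:63023800-63024099 on the minus strand. Capitals mark matches, on either strand, to CCAAT, to TATAAA or to the ETS core CCGGAAG.
Srsf2: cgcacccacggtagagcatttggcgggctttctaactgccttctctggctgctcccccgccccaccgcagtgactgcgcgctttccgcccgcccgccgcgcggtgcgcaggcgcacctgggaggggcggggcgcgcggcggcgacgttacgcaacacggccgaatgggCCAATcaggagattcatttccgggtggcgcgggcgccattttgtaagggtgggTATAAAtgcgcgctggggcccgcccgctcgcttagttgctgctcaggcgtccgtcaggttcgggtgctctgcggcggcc
Hnrnpab: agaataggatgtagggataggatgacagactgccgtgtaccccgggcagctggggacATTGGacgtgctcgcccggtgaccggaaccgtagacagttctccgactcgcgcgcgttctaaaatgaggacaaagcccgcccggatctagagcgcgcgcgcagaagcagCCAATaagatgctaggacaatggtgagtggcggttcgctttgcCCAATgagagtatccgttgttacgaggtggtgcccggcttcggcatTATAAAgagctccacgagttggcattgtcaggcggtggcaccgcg
Srsf5: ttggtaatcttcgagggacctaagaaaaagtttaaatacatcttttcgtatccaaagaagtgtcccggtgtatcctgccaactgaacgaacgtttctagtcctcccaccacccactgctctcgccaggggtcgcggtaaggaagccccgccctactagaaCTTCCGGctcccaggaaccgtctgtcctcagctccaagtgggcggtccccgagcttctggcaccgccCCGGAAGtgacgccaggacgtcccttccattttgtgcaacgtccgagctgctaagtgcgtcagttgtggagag
Hnrnph3: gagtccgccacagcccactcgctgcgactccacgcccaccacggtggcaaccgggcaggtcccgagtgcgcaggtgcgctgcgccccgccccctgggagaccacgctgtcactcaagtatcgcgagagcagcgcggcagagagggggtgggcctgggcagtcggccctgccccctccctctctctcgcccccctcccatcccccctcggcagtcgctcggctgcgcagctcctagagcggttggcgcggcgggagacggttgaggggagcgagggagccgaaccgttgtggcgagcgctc

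Of the 40 genes, 36 had a promoter in the table, 49 promoters in all since some genes have several starts. Srsf2 holds 1 CCAAT and 1 TATAAA, Hnrnpab 3 CCAAT and 1 TATAAA, Srsf5 2 ETS cores, and Hnrnph3 none of the motifs searched. Hnrnpd, also higher in S phase cells, holds 1 ETS core and neither CCAAT nor TATAAA. By the GENCODE coordinates given below, the Hnrnph3 window lies wholly inside the annotated gene. CCAAT was found in 49.0% of the 49 promoters and in 37.4% of all 32851 promoters of that length, the ETS core in 34.7% and 8.86%, and TATAAA in 10.2% and 13.6%. Of 2 E2F forms searched on both strands, TTTNGCGC was found in 4.08% and 1.38%, and GCGGGAA in 18.4% and 4.60%, while the YY1 form AAGATGGC was found in 4.08% and 2.75%. The 49 promoters were rich in CpG, with a median of 27 CG pairs against 7 over all promoters, and motifs rich in C and G are met more often in such sequence. Of the 21 genes higher in S phase cells, 19 had a promoter, and 11 of these held CCAAT, 6 the ETS core, 5 TATAAA, 2 TTTNGCGC, 5 GCGGGAA and none AAGATGGC. Of the 17 other genes with a promoter, 8 held CCAAT, 6 the ETS core, 2 GCGGGAA, 2 AAGATGGC and none TATAAA or TTTNGCGC. A match says only that these letters are in the window.

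On GRCm38 (GENCODE vM21), Srsf2 spans chr11:116849901-116853094, Hnrnpab chr11:51600100-51606847, Hnrnpf chr6:117900324-117925622, Hnrnpd chr5:99955935-99978938, Srsf5 chr12:80945504-80950507 and Hnrnph3 chr10:63014664-63024217. Exons of 7 of the 40 genes overlap exons of a protein-coding gene on the other strand (Srsf2 with Mfsd11 and Mettl23, Hnrnpab with Phykpl, Hnrnph3 with Rufy2, Hnrnpk with Rmi1, Hnrnpu with Cox20, Sf3b3 with Cog4 and Sf3a2 with Plekhj1). The sources used here do not say whether strand was used in counting, so reads of these partners could not be told apart. On the same strand Hnrnpm overlaps March2 and Hnrnpul2 overlaps the gene model AC129217.1.

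The summed level climbed with the number of S phase UMIs. Taking cells with 0 as 1, the 40 genes stood at 1.05 (1.01 to 1.09) in 830 cells with 1 UMI, 1.15 (1.11 to 1.20) in 463 cells with 2, 1.31 (1.26 to 1.36) in 523 cells with 3 or 4, 1.42 (1.35 to 1.48) in 258 cells with 5 or 6, and 1.49 (1.42 to 1.56) in 240 cells with 7 or more. Both aliquots gave this order, ending at 1.47 and 1.49. In the last class SR genes stood at 1.59 (1.43 to 1.77), hnRNP genes at 1.48 (1.40 to 1.57) and SF3 genes at 1.39 (1.20 to 1.61).

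**Figure D3:**
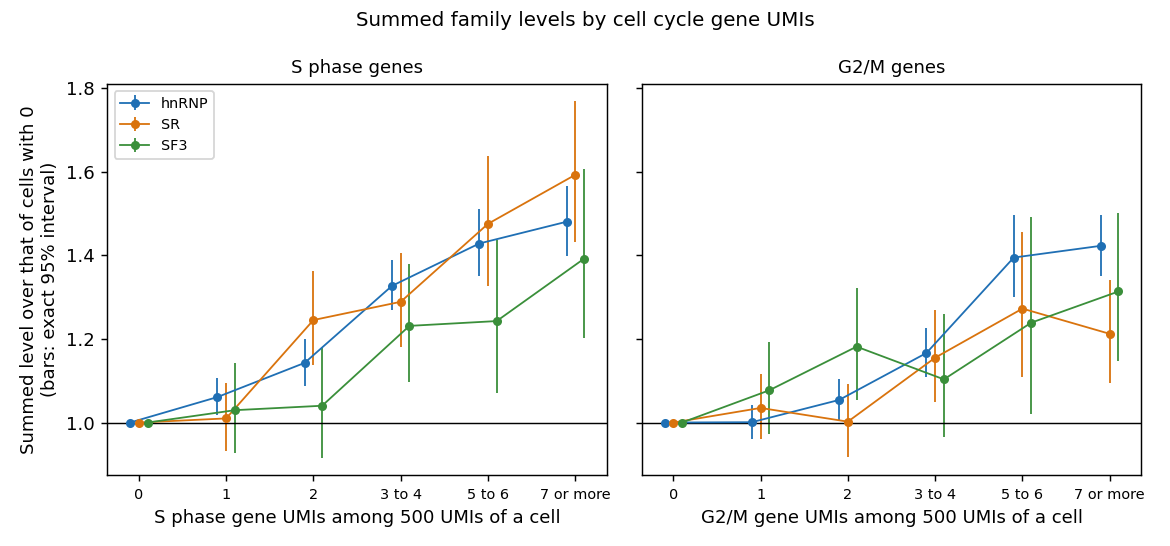
Summed level of hnRNP, SR and SF3 genes relative to cells with 0 UMIs of the S phase genes (left) or of the G2/M genes (right), by the number of such UMIs among 500; bars are exact 95% intervals. All 3 families end above 1 on both sides, and SR genes end at 1.59 on the left but 1.21 on the right.

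The second split used 57 genes of G2 and mitosis, with 848 cells in the upper and 1044 in the lower set. The 40 genes together were 1.27 times as high in the upper set (1.23 to 1.31), at 18406 against 14524 CPM in aliquot 1 and 16438 against 13118 CPM in aliquot 2. The family ratios were 1.30 for hnRNP genes (1.30 in aliquot 1 and 1.28 in aliquot 2), 1.20 (1.11 to 1.29) for SR genes and 1.20 (1.09 to 1.33) for SF3 genes. Of 39 measured genes, 16 were higher, beside 21.8% of all 6839 measured features, and Srsf5 was lower, beside 23.5% of them. With at least 100 expected UMIs, 13 of 23 genes were higher, beside 23.6% of 607 features, and Srsf5 again was lower, beside 18.9%.

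Granulocyte and monocyte markers moved strongly with this split, at 7122 CPM in the upper and 642 CPM in the lower set, and LT-HSC markers stood at 2979 against 4562 CPM. Megakaryocyte markers stood at 505 against 293 CPM. Without the 356 cells holding 3 or more granulocyte and monocyte marker UMIs the summed ratio of the 40 genes was 1.28. The median depth before thinning was 1674 UMIs in the upper and 1329 in the lower set, and its part was not tested. Of the upper set, 51.2% of cells (47.8 to 54.6%, Clopper-Pearson) also had 3 or more S phase UMIs, against 19.5% (17.2 to 22.1%) of the lower set. In cells with 0 S phase UMIs the G2/M ratio was 1.19 (1.11 to 1.28). Over all cells, a second random thinning gave 1.22 (1.18 to 1.26) in place of 1.27 (1.23 to 1.31), so that 1.22 lay outside the interval of the first draw.

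The highest ratio was that of Sf3b5, at 1.89 (1.13 to 3.23) from 40 and 26 UMIs, with 96.6 against 45.1 CPM in aliquot 1 and 92.2 against 53.2 CPM in aliquot 2. Hnrnpa3 stood at 589 against 379 CPM in aliquot 1 and 687 against 383 CPM in aliquot 2, a ratio of 1.68 (1.39 to 2.02), and Sf3b6 at 464 against 321 CPM and 535 against 309 CPM, a ratio of 1.59 (1.29 to 1.96). For these 3 genes the upper and lower values of the aliquots did not overlap. Srsf1 at 1.53 (225 and 181 UMIs), Srsf2 at 1.50 (1.28 to 1.76), Hnrnpab at 1.46 (347 and 292 UMIs) and Hnrnpa1 at 1.40 (1.24 to 1.59) followed.

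At the low end, Srsf5 stood at 396 against 488 CPM in aliquot 1 and 373 against 496 CPM in aliquot 2, a ratio of 0.78 (0.64 to 0.95). The call of Srsf5 ended at 0.82 (0.66 to 1.01) without granulocyte and monocyte marker cells, at 0.90 (0.74 to 1.10) with a second thinning and at 0.92 (0.75 to 1.13) with thinning to 1000 UMIs, and in cells with 0 S phase UMIs its ratio was 1.03 (0.70 to 1.48). Srsf11 had a ratio of 0.80 (0.59 to 1.08), which was 1.03 in aliquot 1 and 0.60 in aliquot 2, and Hnrnph3 had 0.85 (0.61 to 1.17).

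To separate the phases, cells with 3 or more S phase and 0 G2/M UMIs (S only, 204 cells) were set against cells with 3 or more G2/M and 0 S phase UMIs (G2/M only, 145 cells), a comparison chosen after the splits had been seen. Against 418 cells with 0 of both, the summed level of the 40 genes was 1.31 (1.23 to 1.39) in S only, 1.19 (1.11 to 1.28) in G2/M only and 1.50 (1.43 to 1.58) in 434 cells with 3 or more of both. Their median depth before thinning was 1247 UMIs with 0 of both, 1486 in S only, 1314 in G2/M only and 1863 with both. SR genes stood at 1.29 (1.13 to 1.48) in S only and 1.04 (0.88 to 1.22) in G2/M only, and hnRNP genes at 1.33 (1.23 to 1.43) and 1.27 (1.17 to 1.38).

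Hnrnpf and Hnrnpa1, which have nearly equal levels in the pool, differed in opposite directions between these cells. Hnrnpf had 1608 CPM in S only, 814 CPM in G2/M only and 751 CPM with 0 of both, and its S only level was 1.98 times its G2/M only level (1.46 to 2.71), 2.42 in aliquot 1 and 1.64 in aliquot 2. Hnrnpa1 had 912 CPM in S only, 1503 CPM in G2/M only and 957 CPM with 0 of both, a ratio of 0.61 (0.45 to 0.81), 0.60 in aliquot 1 and 0.62 in aliquot 2. Over all 31 measured genes, 13 were higher in S only, beside 23.1% of 1281 measured features, and 7 were lower, beside 19.4%. Most rest on few UMIs, and only Hnrnpf and Hnrnpr (2.37, 1.10 to 5.67, from 30 and 9 UMIs) above 1, and Hnrnpa1 and Hnrnph2 (0.34, 0.13 to 0.78, from 9 and 19 UMIs) below 1, had intervals that leave out 1 among the measured genes.

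Srsf5 was lowest where both phase lists were present. It stood at 550.2 CPM in cells with 0 of both, 441 CPM in S only, 566 CPM in G2/M only and 309 CPM in cells with both, where the ratio to cells with 0 of both was 0.56 (0.41 to 0.76). Srsf2 in the same order had 555 CPM, 706 CPM, 538 CPM and 1009 CPM, with a ratio of 1.82 (1.45 to 2.30) in cells with both. Both genes encode SR proteins, and in cells with both lists their ratios lay on opposite sides of 1. In the other classes the intervals included 1. Srsf5 had 0.80 (0.55 to 1.14) in S only and 1.03 (0.70 to 1.48) in G2/M only. Srsf2 had 1.27 (0.93 to 1.72) and 0.97 (0.66 to 1.40).

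The third split took 558 cells with at least 1 thinned UMI of Fos or Egr1, immediate early genes induced by growth factors, stress and tissue handling, against 2844 cells with none. The 40 genes together were slightly lower in the upper set, with a ratio of 0.91 (0.88 to 0.94), at 14808 against 16227 CPM in aliquot 1 and 12772 against 14030.1 CPM in aliquot 2. The family ratios were 0.90 (0.87 to 0.94) for hnRNP genes, 0.94 (0.87 to 1.01) for SR genes and 0.92 (0.83 to 1.02) for SF3 genes. No gene was called higher, beside 13.4% of all 5352 measured features, and 4 of 39 were lower (Hnrnpab, Hnrnph2, Hnrnpul1 and Srsf3), beside 18.4%. The lower count is thus no larger a share than that of all features, while the median log2 ratio was -0.18 against -0.02 for all features.

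S phase cells made up 21.9% (18.5 to 25.5%) of the cells with Fos or Egr1 UMIs and 31.6% (29.9 to 33.4%) of the others. Granulocyte and monocyte markers stood at 1561 against 3059 CPM, at 888 against 3901 CPM in aliquot 1 and 1847 against 2718 CPM in aliquot 2. Megakaryocyte markers stood at 232 against 374 CPM. Their part in the summed ratio was not tested. In cells with 0 UMIs of both phase lists the summed ratio was 0.98 (0.89 to 1.07). The highest single ratios were those of Sf3b1 at 1.24 (0.98 to 1.54), Srsf6 at 1.17 (0.93 to 1.46) and Hnrnpu at 1.13 (0.98 to 1.30), all above 1 in both aliquots and all with intervals that include 1. The lowest were Sf3a1 at 0.72 (0.45 to 1.10), Hnrnph2 at 0.74 (0.50 to 1.07) and Srsf3 at 0.75 (0.56 to 0.99), and Sf3a1 stood at 0.41 in aliquot 1 but 1.12 in aliquot 2.

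Procr, which encodes the endothelial protein C receptor and marks LT-HSCs, was found in 274 thinned cells. The 40 genes together were lower there than in the 3128 cells without it, with a ratio of 0.87 (0.83 to 0.91), at 14076 against 16166 CPM in aliquot 1 and 12098 against 13972 CPM in aliquot 2. The family ratios were 0.84 (0.75 to 0.93) for SR genes, 0.87 (0.82 to 0.92) for hnRNP genes and 0.95 (0.82 to 1.09) for SF3 genes. Of 37 measured genes, 9 were lower, beside 22.7% of all 2770 measured features, and 2 were higher (Hnrnph3 and Srsf10), beside 13.7%. With a second random thinning and with all counts of the same cells 14 were lower and none higher. The share of all features past the limits in those runs is not given here, so no reading is drawn from the 14. The median log2 ratio was -0.20 for the 37 genes and -0.04 for all features.

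Srsf7 was lowest, at 137 against 272 CPM in aliquot 1 and 126 against 218 CPM in aliquot 2, a ratio of 0.54 (0.32 to 0.87) from 18 UMIs in the upper set. Hnrnpa2b1 stood at 916 against 1401 CPM in aliquot 1 and 937 against 1285 CPM in aliquot 2, a ratio of 0.69 (0.57 to 0.83), and Hnrnpab at 458 against 649 CPM and 406 against 580.4 CPM, a ratio of 0.70 (0.53 to 0.92). In these 3 genes both upper values lay below both lower values. Srsf11 at 0.63 (0.36 to 1.03) and Hnrnpd at 0.65 (0.41 to 1.00) were also low. Srsf10 had the highest ratio, 1.70 (1.05 to 2.65) from 23 UMIs, which was 1.00 in aliquot 1 and 2.45 in aliquot 2, and 1.23 with a second thinning. Hnrnph3 at 1.29 (0.87 to 1.85) turned to 0.90 (0.63 to 1.253) with thinning to 1000 UMIs, and Sf3b2 had 1.17 (0.81 to 1.66).

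Cells with Procr held fewer cycling cells. S phase cells were 13.1% (9.37 to 17.7%) of them against 31.5% (29.9 to 33.2%) of the rest, and granulocyte and monocyte markers stood at 603 against 2999 CPM. Megakaryocyte markers stood at 182 against 366 CPM. In cells with 0 UMIs of both phase lists the summed ratio was 0.97 (0.85 to 1.10). The interval there includes both 1 and the ratio over all cells.

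Cells with at least 1 GFP UMI numbered 71, where the labels state 46 after the authors' processing, by a filter that is not described. For so few cells all counts were used in place of thinned ones. The 40 genes together had a ratio of 0.98 (0.94 to 1.02), at 16803 against 16734 CPM in aliquot 1 (23 GFP cells) and 14510.0 against 14596 CPM in aliquot 2 (48 GFP cells). The family ratios were 1.06 (0.93 to 1.21) for SF3, 0.98 (0.93 to 1.04) for hnRNP and 0.92 (0.83 to 1.02) for SR genes. The SR ratio had no common direction, at 1.17 (0.94 to 1.43) in aliquot 1 and 0.88 (0.78 to 0.99) in aliquot 2. In the same order the hnRNP ratio was 0.94 and 1.01, and the SF3 ratio 1.11 and 1.07. Of 37 measured genes, 1 was higher, beside 13.2% of all 2759 measured features, and 4 were lower, beside 19.9%. Low counts can carry features past these limits, and features of matching coverage were not compared in this split. A cell without a GFP UMI may still be from the GFP sort, since detection of 1 transcript is incomplete at this depth.

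Hnrnpc had the best-covered difference, with 63 UMIs in 37 of the 71 cells, at 459.8 against 728 CPM, a ratio of 0.63 (0.48 to 0.81), which was 0.59 in aliquot 1 and 0.65 in aliquot 2. Hnrnph3 stood at 87.6 against 170.5 CPM, a ratio of 0.51 (0.26 to 0.90) from 12 UMIs, and Srsf10 at 65.7 against 120.4 CPM, a ratio of 0.55 (0.25 to 1.04) from 9 UMIs. Srsf11 had a ratio of 0.59 (0.34 to 0.97), but 1.81 in aliquot 1 and 0.32 in aliquot 2. Sf3a3, a subunit of SF3A, was the one gene called higher, at 146 against 80.5 CPM, a ratio of 1.81 (1.10 to 2.84) from 20 UMIs, and 1.50 without the 1 cell that held 4 of them. Sf3a1 at 1.37 (0.84 to 2.11) and Hnrnpdl at 1.26 (0.79 to 1.91) followed, and without 1 cell each they had 0.99 and 1.08. Granulocyte and monocyte markers stood at 591 CPM in GFP cells and 2888 CPM in the others, LT-HSC markers at 3809.8 and 3909 CPM, and immediate early genes other than Fos and Egr1 at 4036 and 2719 CPM. Megakaryocyte markers stood at 664 against 345 CPM, at 553 against 315 CPM in aliquot 1 and 687 against 357 CPM in aliquot 2. Erythroid markers stood at 1095 against 1688 CPM, and 6 of the 10 had no UMI in GFP cells. Over all kept cells Car2 gave most of this list, 1847 of 2002 CPM in aliquot 1 and 1428 of 1540 CPM in aliquot 2. The part of all these markers in the ratios was not tested.

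**Figure D4:**
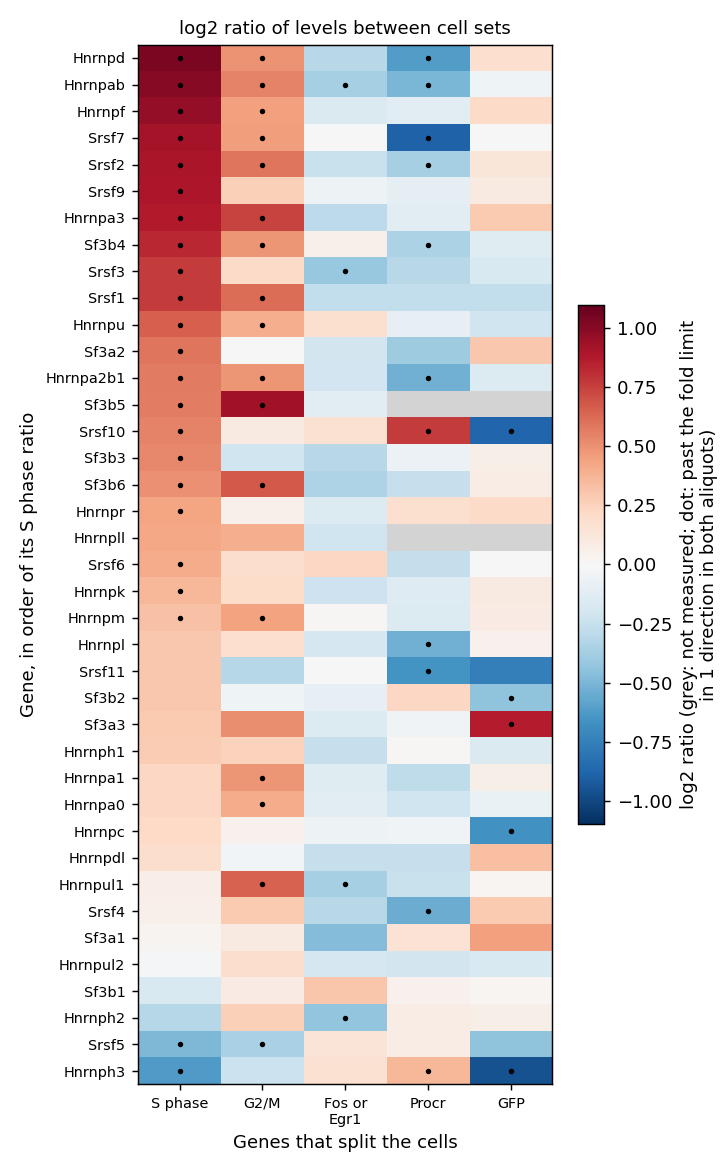
Log2 ratio of level between the upper and lower cell sets of each split (columns) for 39 genes in the order of their S phase ratio; red is higher, blue lower, grey not measured, and a dot marks ratios past the limits of 25% higher or 20% lower with 1 direction in both aliquots. Genes at the top (Hnrnpd, Hnrnpab, Srsf7, Srsf2) are red under S phase and blue under Procr, and Srsf5 and Hnrnph3 at the bottom are blue under S phase.

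The rest of the splicing machinery was described from lists of named genes. In S phase cells, 13 of 14 measured Sm and LSm genes, which encode the rings around spliceosomal RNAs, were higher and none lower, beside 23% of all measured features higher and 25.7% lower, with a median log2 ratio of 0.71. Snrpd1 had a ratio of 1.97 (1.47 to 2.66), Snrpd3 1.33 (1.04 to 1.71), Snrpf 1.49 (1.19 to 1.87) and Snrpe 1.21 (0.97 to 1.50). In the G2/M split 10 of 14 were higher, beside 21.8% of all measured features, with a median of 0.60 on the log2 scale. Of 3 U1 genes 2 were higher in both splits, and Snrnp70, which binds U1 RNA, had an S phase ratio of 1.58 (1.33 to 1.88).

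Other lists were more mixed in the S phase split, where 23% of all measured features were higher and 25.7% lower. The shares of U2, tri-snRNP and Prp19 genes that were higher lay near that of all features. U2 associated factors had 4 of 14 higher and none lower (U2af1 1.44, 1.09 to 1.89, and Sf1 1.00, 0.78 to 1.27), the tri-snRNP 4 of 14 higher and 1 lower (Prpf8 1.01, 0.78 to 1.30), and the exon junction complex 4 of 8 higher (Magoh 1.56, 1.12 to 2.20). The Prp19 complex and catalytic factors had 6 of 21 higher and 5 lower, with a median log2 ratio of -0.14, and minor spliceosome genes 3 of 7 higher and 1 lower. SR-related proteins had 8 of 19 higher and 1 lower (Tra2b 1.40, 1.12 to 1.75, and Son 0.95, 0.76 to 1.19), and other splicing regulators 16 of 38 higher and 1 lower (Nono 1.33, 1.12 to 1.57, and Pcbp2, the most abundant of them, 1.04, 0.92 to 1.17). The kinases that phosphorylate SR proteins had 3 of 8 higher and 2 lower, with a median log2 ratio of -0.26. Clk1 had a ratio of 0.86 (0.53 to 1.39) and Dyrk1a 0.76 (0.48 to 1.20). Srpk1 stood at 72.5 against 27.6 CPM, a ratio of 2.63 (1.41 to 5.16), and Srpk2 at 39.2 against 68.0 CPM, a ratio of 0.58 (0.32 to 1.02).

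Of 7 splicing genes recurrently mutated in myelodysplasia, Srsf2 and U2af1 were higher in S phase cells, beside 23% of all measured features. Ddx41 was lower, at 0.43 (0.19 to 0.90), beside 25.7% of all measured features. Ratios of 4 of the 7 lay below 1, and the median log2 ratio was -0.17. Sf3b1, Prpf8, Luc7l2 at 0.86 (0.64 to 1.17) and Zrsr2 at 0.67 (0.32 to 1.32) had intervals that include 1.

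**Figure D5:**
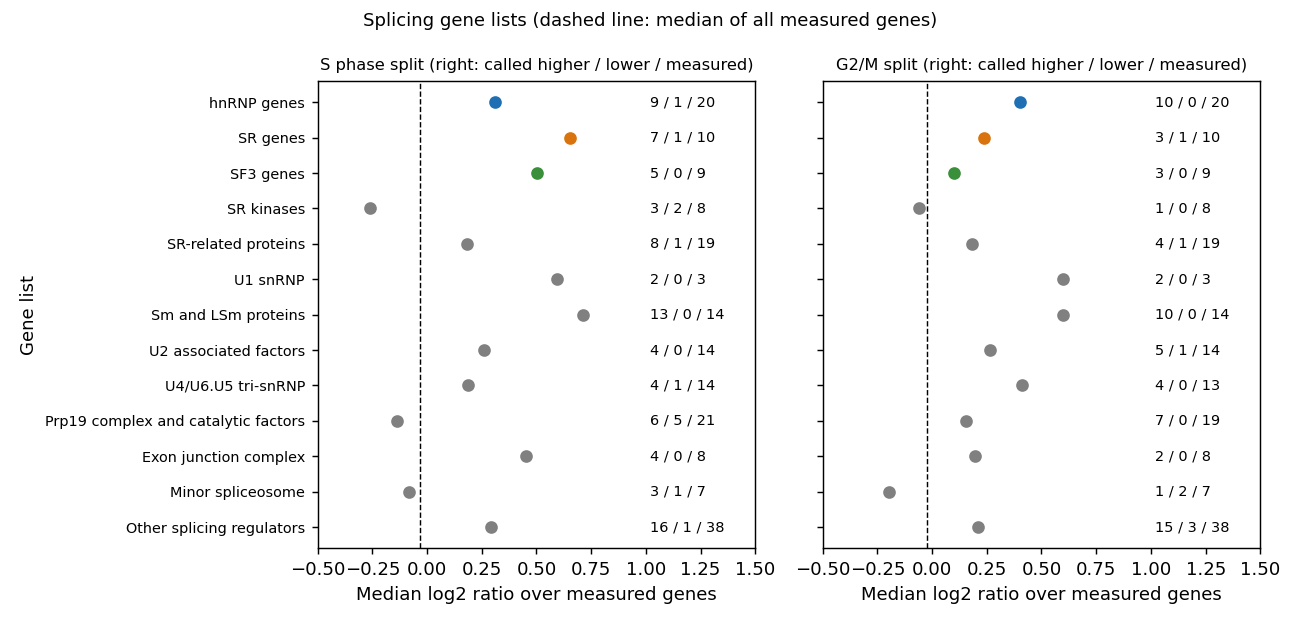
Median log2 ratio over the measured genes of each splicing list in the S phase split (left) and the G2/M split (right), with the numbers of genes called higher, called lower and measured beside each point; the dashed line is the median of all measured features. Sm and LSm proteins lie at 0.71 on the left, and SR kinases and minor spliceosome genes lie below the dashed line on both sides. On the right these 2 lists lie at -0.06 and -0.20, beside -0.02 for all measured features.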

How the data were processed

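Each deposited table gives UMI counts as whole numbers, not normalized, for 28206 features by barcode. Per the submitters' processing notes the build was GRCm38 and the tools included RSEM 1.3.0, SAMtools 1.3.1 and Bowtie 1.1.1, with no roles or settings stated, and GFP was counted against the cassette sequence, per the labels. The 40 genes, the lists and the splits were chosen with earlier results of these data known. Counts of kept cells were summed over cell sets and scaled to 1e6 without the GFP feature, with exact 95% intervals (Poisson for levels, conditional binomial for ratios, Clopper-Pearson for shares) that cover counting error only, since UMIs of 1 cell are not independent and cells are not replicates. In each split the 3 highest and 3 lowest genes were named, with others by role. Doublets were kept in the main values: Scrublet in scanpy 1.11.5 (expected rate 6%) marked 9 cells of aliquot 1 and 16 of aliquot 2, 0.735% of all. Gene symbols of all 40 genes matched GENCODE vM21, and promoters came from RefSeq. The split calculation was run on simulated counts with known changes. These were summed counts with counting error only, so that run does not cover spread between cells, thinning or depth. Calculations used scipy 1.17.1, pandas 2.3.3, numpy 2.4.6 and matplotlib 3.10.9 under Python 3.11.15. Alternatives covered depth, mitochondrial and list limits, marker cells, doublets, the random draw, each aliquot and shared barcodes.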

Additional observations from a re-analysis of the deposited data

How the results depend on the processing

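No paired analysis was possible because both samples belong to 1 group. The S phase ratio of the 40 genes, 1.38, was 1.42 with thinning to 1000 UMIs, 1.31 with 2 or more list UMIs in place of 3, 1.45 with 5 or more and 1.31 in cells with 0 G2/M UMIs, and without 1 aliquot it was 1.36 to 1.37. The G2/M ratio, 1.27, was 1.22 both without mt-, Rpl and Rps features and with another random draw, 1.18 with 2 or more list UMIs, 1.36 with 5 or more and 1.19 in cells with 0 S phase UMIs, and without 1 aliquot 1.253 to 1.27. In the cells with 0 S phase UMIs Sf3b5 turned to 0.96 and Srsf5 to 1.03. The Fos or Egr1 ratio, 0.91, was 0.88 with Egr1 alone and 0.98 in cells with 0 UMIs of both phase lists, where Hnrnph2 turned to 1.15. It was 0.91 without either aliquot. The Procr ratio, 0.87, was 0.82 with another draw and 0.97 without phase UMIs, and 0.87 without either aliquot. Hnrnph3 turned to 0.92 in cells of at least 1000 UMIs and to 0.90 with thinning to 1000, where the call of Hnrnph3 as higher in Procr cells ends. The GFP ratio, 0.98, was 1.06 with 2 or more GFP UMIs, 0.92 without phase UMIs (10 GFP cells, where Sf3a3 was 0 and Hnrnph3 1.01), and 0.99 to 1.00 without 1 aliquot. The summed level, 15214 CPM, was 15393 CPM in cells of at least 1000 UMIs, 18993 CPM without mt-, Rpl and Rps features, and 14594 to 16735 CPM without 1 aliquot. Leaving out barcodes shared by the aliquots, an alternative chosen after seeing the data, gave ratios of 1.38, 1.27, 0.92, 0.89 and 0.97 in the order above. The summed ratios of the S phase, G2/M, Fos or Egr1 and Procr splits kept their side of 1 under every alternative run, and the GFP ratio lay on both sides. Counts of called genes moved more. The 21 genes higher in S phase stayed within 1.5 times of that count throughout, whereas the 2 lower ranged from 0 to 4. The 16 higher in G2/M were 8 in cells with 0 S phase UMIs. That set also holds fewer cells, and the part of this in the count was not tested. Lower genes ranged from 0 to 4 in G2/M (1 in the report), 1 to 11 for Fos or Egr1 (4), 1 to 15 for Procr (9) and 0 to 8 for GFP (4), and higher genes from 0 to 3 for Fos or Egr1 (0), 0 to 2 for Procr (2) and 0 to 5 for GFP (1). The shares of all features past the limits in those runs are not given here, so no reading about the genes is drawn from these counts. The cause of the changes was not tested.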
